A study of Mus musculus with 18 samples.

Results

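Long-term haematopoietic stem cells (LT-HSC) cultured with the reprogramming factors induced (D) were compared with LT-HSC cultured alongside without induction (N), after 2 days (libraries 2D and 2N) and after 4 days (4D and 4N). The members are the 4 libraries that carry these titles, of 18 in the whole series, and the features compared are genes. The cells came from C57BL/6 mice that developed entirely from induced pluripotent stem (iPS) cells and carry doxycycline-inducible insertions of Klf4, Sox2, c-Myc and Oct4 (the product of Pou5f1), so D and N cells have the same genotype. The series also holds these 4 cultures for cells labelled MP and for short-term haematopoietic stem cells (ST-HSC). It further holds an uncultured library of each blood cell type and 3 fibroblast libraries. By the series design D cultures had doxycycline and N cultures did not, although the doxycycline field of the N libraries also says yes; the titles are followed here. Each blood library was made from 25 hand-picked cells, whose polyadenylated RNA was copied from a poly(T) primer and amplified by PCR. The sources used here do not give the age or number of the mice or the promoter that drives the factors.

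LT-HSC sit at the top of the blood hierarchy and renew themselves while feeding all blood lineages. They are kept by transcription factors such as the MEIS, ETS and GATA proteins and by cytokine signals, and many of them also express megakaryocyte genes. The 4 factors, when forced into a differentiated cell, act together on the genome to shut off the starting programme and, later and in few cells, to open the pluripotency network of Oct4, Sox2 and Nanog.

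Expression is given as FPKM, a read density scaled to transcript length and library size, and differences as log2(FPKM + 1) in D minus N. Each condition was 1 library, so a difference within 1 day has no replicate check. A gene was called where it was at FPKM 10 or more in at least 1 of the 4 LT-HSC libraries and differed at least 4-fold on this scale, in the same direction, at both days. As a test over the 2 days, limma was fitted to the 4 libraries with day as a block, over 12100 genes at a mean FPKM of 1 or more. That fit has 1 residual degree of freedom and borrows most of its spread from all genes (median prior degrees of freedom 7.15). Its p-values set the mean difference of the 2 days against that spread. The only spread within a gene is how far its 2 days differ, and no replicate enters. Differences from limma are given as mean ± standard error on the log2 scale. With 0.1 added in place of 1, without the filter on low values, or without limma's trend and robust options it called 0 genes, against 2340, 2404 and 2175 genes at an unadjusted p under 0.05 in limma. The adjusted p-values quoted below from limma for LT-HSC alone hold only within the chosen setting. The 9 defining LT-HSC markers Kit, Ly6a, Slamf1, Procr, Mecom, Hlf, Fgd5, Meis1 and Ptprc were above 0 in 2N, 4N and uncultured cells, while Slamf1 was listed at 0 in 2D and Slamf1, Procr, Fgd5 and Ptprc in 4D. Their summed level was higher in D, at 445 FPKM in 2D against 295 in 2N, and 192 in 4D against 183 in 4N. Most of both D sums was Ly6a, described below, so the sums do not give the direction of the other markers. Slamf1, Hlf, Meis1 and Ptprc were each called lower in D by the rule. The depth is unknown. The 4 libraries summed to 732389 to 767866 FPKM and held 10758 to 11365 genes at FPKM 1 or more. Since Cufflinks can fail on a gene, a 0 is written as listed at 0.

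Granule genes set 2N apart from 4N. The 22 genes of the neutrophil granule list summed to 564 FPKM in 2D against 8049 in 2N, and to 195 FPKM in 4D against 2079 in 4N. The late granule genes Camp, S100a9 and Ngp stood at 1266, 864 and 799 FPKM in 2N, against 3.71, 1.82 and 1.05 in 4N. In uncultured LT-HSC the list summed to 58060 FPKM, so that library also holds granule transcripts in quantity. Their part in the results below was not tested.

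Of the 8809 genes at FPKM 10 or more, 256 were higher in D at both days (2.91%) and 410 were lower at both days (4.65%). At day 2 alone 571 genes were higher (6.48%) and 659 lower (7.48%), and at day 4 alone 629 were higher (7.14%) and 1004 lower (11.4%). The genes higher at both days made up 44.8% of those higher at day 2 and 40.7% of those higher at day 4. For the lower genes the shares were 62.2% of day 2 and 40.8% of day 4. Only 39 genes (0.443%) were past 4-fold at both days in opposite directions. Across genes the log2 values of 2D and 4D correlated at 0.820 and those of 2N and 4N at 0.813, against 0.691 for 2D with 2N and 0.640 for 4D with 4N. These are descriptions over the same 8809 genes of 4 libraries and carry no p. In the limma fit 251 genes rose (2.07%) and 364 fell (3.01%). Of the called genes, 164 of the 256 higher and 293 of the 410 lower passed it. That count rests on the same differences that chose the genes and is no separate evidence. The limma counts here are over the 12100 genes tested.

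**Figure D1:**
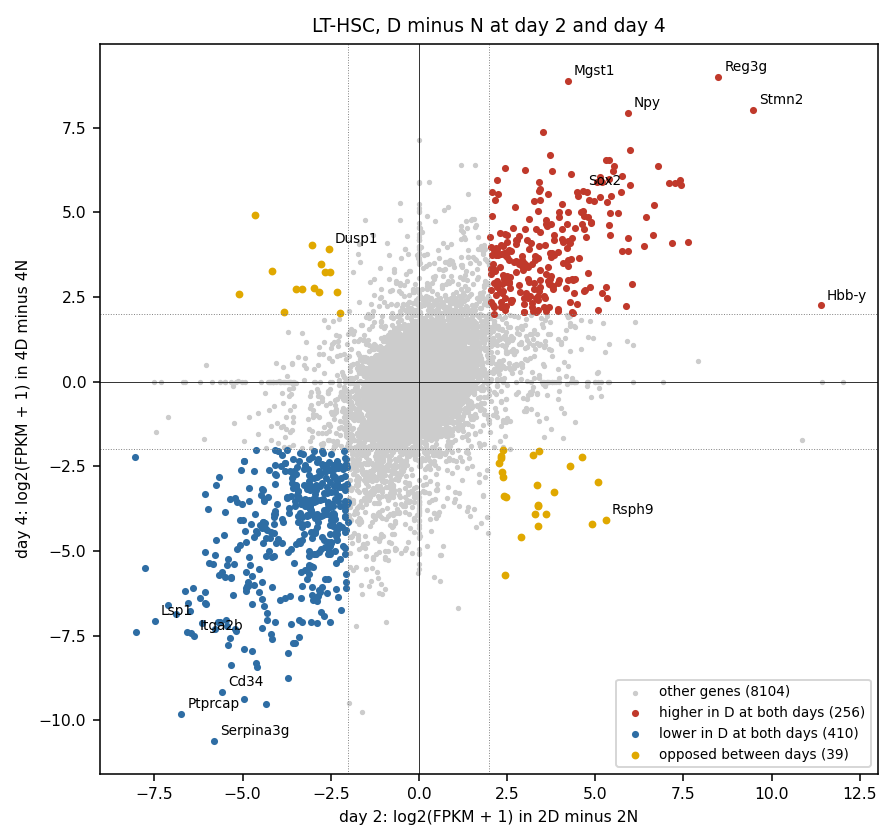
Difference in log2(FPKM + 1), D minus N, at day 2 (x axis) and day 4 (y axis) in LT-HSC, 1 point per gene at FPKM 10 or more, with dotted lines at a 4-fold difference. The 256 red and 410 blue genes passed 4-fold in the same direction at both days, and the 39 yellow ones in opposite directions.

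Genes just past the threshold differed little from those just short of it. Grb10 differed by 2.001 at day 2 and 4.26 at day 4 and was called, whereas Lyrm1 differed by 1.99 and 2.48 and was not. On the lower side Uap1l1 differed by -2.003 and -4.14 and was called, and Mobkl2a by -1.99 and -4.08 and was not.

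The called genes differed in where they started. Of the 8809 genes, 931 reached FPKM 10 in D libraries alone and 1310 in N libraries alone. Such genes lie below 10 in every library of the other condition, so counts and medians of the gene lists below, taken over members at FPKM 10 or more, are in part set by this minimum and are given as descriptions. Of the 256 higher genes, 102 were listed at 0 in both N libraries, and 76 were listed at 0 in both N libraries and in uncultured LT-HSC. Another 58 of the 256 were at FPKM 10 or more in uncultured LT-HSC. The median level of the 256 was 21.5 FPKM in 2D and 22.1 FPKM in 4D, against 0 in both N libraries. Of the 410 lower genes, 305 were at FPKM 10 or more in uncultured LT-HSC. Their median was 2.03 FPKM in 2D against 36.2 FPKM in 2N, and 0 in 4D against 31.2 FPKM in 4N. Most lower genes were lower still at day 4: 262 of them were lower in 4D than in 2D and 49 were higher, and 252 were listed at 0 in 4D against 111 in 2D. Over all 8809 genes 4D listed 553 at 0, 2D 278, 2N 365 and 4N 338. With 25 cells per library, loss of cells of 1 type and loss of RNA per cell cannot be told apart.

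The induced factors themselves were read unevenly, and FPKM does not separate the inserted copies from the cell's own genes. Sox2, the HMG-box partner of Oct4, was at 61.3 FPKM in 2D against 1.5 in 2N, and 48.9 in 4D against 0 in 4N. It rose by 5.14 ± 0.67, limma adjusted p = 0.0064. Klf4, a zinc-finger factor that myeloid cells also use, was at 11.2 FPKM in 2D against 0 in 2N, and 8.16 in 4D against 0 in 4N, a difference of 3.399 ± 0.79, limma adjusted p = 0.0503. In uncultured LT-HSC Klf4 stood at 214 FPKM, above all 4 cultured libraries. Myc was at 67.4 FPKM in 2D against 188 in 2N, and 189 in 4D against 290.5 in 4N. Both D values lay below the N value of the same day, and the difference did not pass (-1.04 ± 0.32, limma adjusted p = 0.107). Pou5f1, which encodes Oct4, was at 2.04 FPKM in 2D and listed at 0 in 2N, 4D, 4N and uncultured cells, and was too low to be tested. Nanog, a marker of pluripotent cells, was listed at 0 in all 4 libraries. Of 30 pluripotency genes 3 reached FPKM 10, and 1 was called: Klf5, at 23.1 FPKM in 2D against 0 in 2N, and 31.0 in 4D against 0 in 4N (4.79 ± 0.72, limma adjusted p = 0.0111). Over all genes 2.91% were called higher. Of the 3 pluripotency genes, 2 reached FPKM 10 in D libraries alone and 1 in N libraries alone. Otx2, a homeobox gene of early embryo and forebrain, was at 57.8 FPKM in 4D and listed at 0 in 2D, 2N and 4N.

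Among the lists with 5 or more members at FPKM 10 or more, genes known from neurons and glia held the largest share of higher members. Of the 42 genes of the neural and neurite list 41 were found and 11 were at FPKM 10 or more; 7 of these were called higher and 0 lower, against 2.91% and 4.65% of all genes, and their median difference was 5.39 at day 2 and 5.86 at day 4, against 0 and -0.02 over all genes. Of the 11, 8 reached FPKM 10 in D libraries alone, and over the 20 members at FPKM 1 or more the medians were 1.88 and 2.41, with 9 called higher. All 7 called at FPKM 10 passed limma, and 23 of the 41 were listed at 0 in 2D. Stmn2, a microtubule regulator of growing axons, was at 714 FPKM in 2D against 0 in 2N, and 655 in 4D against 1.5 in 4N, the largest positive difference of all named genes (8.76 ± 0.50, limma adjusted p = 0.000734). Npy, which encodes neuropeptide Y, was at 59.9 FPKM in 2D against 0 in 2N, and 243 in 4D against 0 in 4N (6.93 ± 0.71, limma adjusted p = 0.00335). Both were high in each D library and at or near 0 in each N library. Mobp, a myelin component of oligodendrocytes, was at 61.8 FPKM in 2D against 0 in 2N, and 114 in 4D against 0 in 4N (6.41 ± 0.66, limma adjusted p = 0.00335). Sox21, a SOX factor of neural progenitors and epithelia, was at 154 FPKM in 2D against 0 in 2N, and 91.1 in 4D against 0.59 in 4N (6.57 ± 0.65, limma adjusted p = 0.0033). Helt, a basic helix-loop-helix repressor of midbrain development, was at 41.0 FPKM in 2D against 0 in 2N, and 166 in 4D against 0.78 in 4N (5.97 ± 0.66, limma adjusted p = 0.00371). Dpysl3, a collapsin response mediator protein, was at 98.0 FPKM in 2D against 0 in 2N, and 101 in 4D against 4.09 in 4N (5.48 ± 0.70, limma adjusted p = 0.00648). Of these 6, Npy alone was above 0 in uncultured LT-HSC, at 16.0 FPKM.

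The other genes among the 15 largest positive differences are described by what they encode, a grouping made after they were seen and not tested. Reg3g, Timp1 and Pdgfa encode secreted proteins, as Npy does. Reg3g, an antimicrobial lectin of gut and airway epithelium, was at 358 FPKM in 2D against 0 in 2N, and 509.7 in 4D against 0 in 4N (8.74 ± 0.52, limma adjusted p = 0.000734). Timp1, an inhibitor of matrix metalloproteinases, was at 168 FPKM in 2D against 0 in 2N, and 61.3 in 4D against 0 in 4N (6.68 ± 0.68, limma adjusted p = 0.00335). Pdgfa, a platelet-derived growth factor chain, was at 108 FPKM in 2D against 0 in 2N, and 82.1 in 4D against 0 in 4N (6.57 ± 0.64, limma adjusted p = 0.0033). Timp1 and Pdgfa were higher in 2D than in 4D, and Reg3g was higher in 4D.

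Others encode enzymes or carriers, of which Adh7 and Mfsd2a passed limma and Mgst1 and Hbb-y did not. Adh7, a retinol-oxidising alcohol dehydrogenase, was at 169.8 FPKM in 2D against 0 in 2N, and 110.1 in 4D against 0.99 in 4N (6.61 ± 0.65, limma adjusted p = 0.0033). Mfsd2a, a transporter of lysophosphatidylcholine, was at 45.4 FPKM in 2D against 0 in 2N, and 81.5 in 4D against 0 in 4N (5.95 ± 0.68, limma adjusted p = 0.0042). Mgst1, a membrane-bound glutathione S-transferase, was at 960.3 FPKM in 2D against 50.7 in 2N, and 777 in 4D against 0.65 in 4N; its difference was 4.22 at day 2 and 8.88 at day 4 and did not pass (6.55 ± 1.43, limma adjusted p = 0.161). Hbb-y, the embryonic beta-like globin, was at 2707 FPKM in 2D against 0 in 2N, and 63.1 in 4D against 12.5 in 4N. That is a difference of 11.4 at day 2 and 2.25 at day 4, and limma did not call it (6.83 ± 3.41, limma adjusted p = 0.469). Globin genes are near copies of each other, so the share assigned to Hbb-y is uncertain. Hbb-b2, an adult beta globin, went the other way, with 0 FPKM in 2D against 65.7 in 2N, and 0 in 4D against 8.86 in 4N (-4.68 ± 0.87, limma adjusted p = 0.0257).

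Hey1, Grb14 and Crip2 complete the 15. Hey1, a repressor that Notch signalling switches on, was at 134 FPKM in 2D against 0 in 2N, and 57.0 in 4D against 0 in 4N (6.47 ± 0.68, limma adjusted p = 0.00335). Grb14, an adaptor that restrains the insulin receptor, was at 38.3 FPKM in 2D against 0 in 2N, and 127 in 4D against 0.38 in 4N (5.92 ± 0.68, limma adjusted p = 0.0042). Crip2, a LIM-domain protein, was at 100.2 FPKM in 2D against 0 in 2N, and 36.4 in 4D against 0 in 4N (5.94 ± 0.71, limma adjusted p = 0.00498). In all, 13 of the 15 passed limma. Uncultured LT-HSC held Mgst1 at 183.5, Crip2 at 39.1, Hey1 at 20.0 and Npy at 16.0 FPKM, and the rest of the 15 were listed at 0 there. Fibroblasts not given doxycycline held Timp1 at 479 FPKM and Mgst1 at 87.2 FPKM, while Npy, Sox21, Mobp, Helt, Reg3g and Hbb-y were listed at 0 there.

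**Figure D2:**
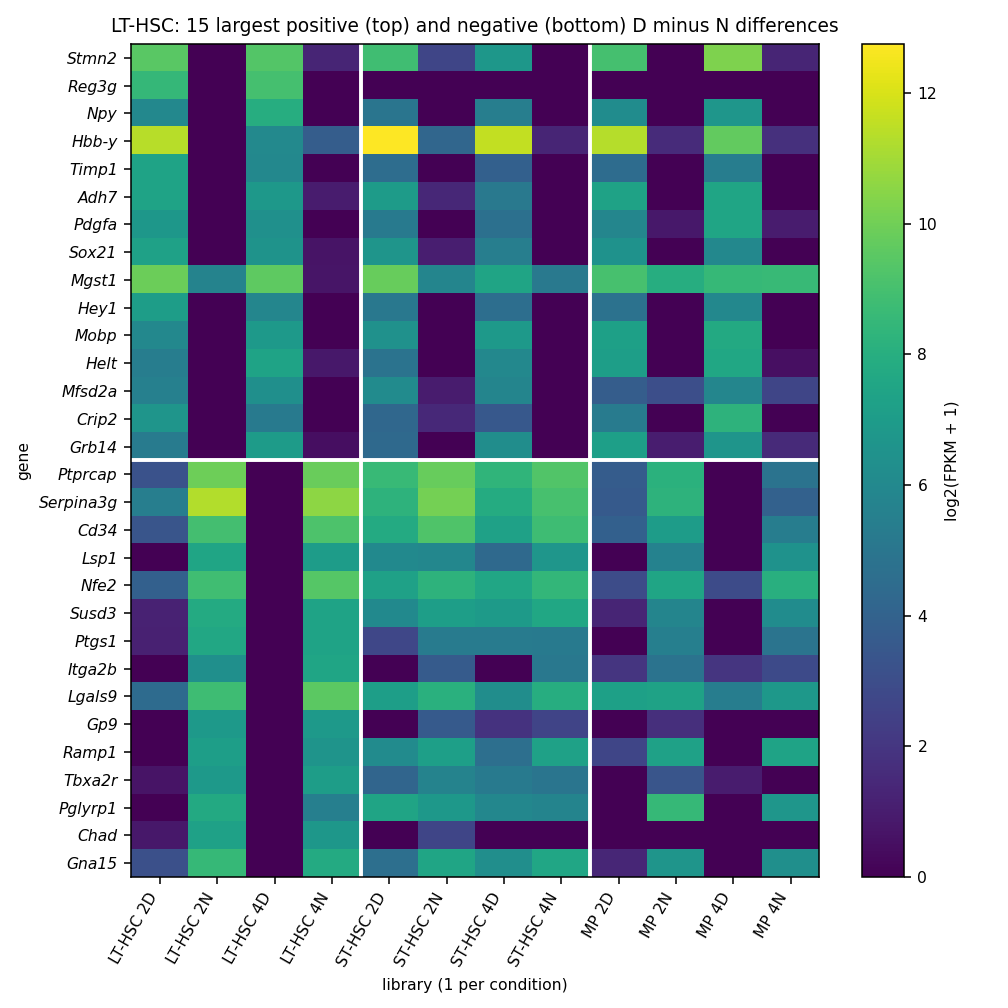
Level of the 15 genes with the largest positive and the 15 with the largest negative mean difference in LT-HSC, as log2(FPKM + 1), in the D and N libraries of LT-HSC, ST-HSC and MP, 1 library per column. Most upper genes are bright in D and dark in N in all 3 cell types, Reg3g in LT-HSC alone; most lower genes are dark in the D libraries of LT-HSC and MP and brighter in those of ST-HSC.

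Some members of the TGF-beta and activin pathway were higher in D. This family of ligands acts through paired type I and type II serine-threonine kinase receptors on SMAD proteins, whose targets include the Id genes. Of 21 members at FPKM 10 or more 6 were called higher and 0 lower, against 2.91% and 4.65% of all genes. Of the 21, 9 reached FPKM 10 in D libraries alone and 0 in N libraries alone. Their medians were 0.57 at day 2 and 0.83 at day 4 (0.84 and 0.50 over members at FPKM 1 or more). By limma 4 of the 36 members passed as higher. Among the ligands and their antagonists, Tgfb2 was at 24.9 FPKM in 2D against 0 in 2N, and 5.37 in 4D against 0 in 4N (3.68 ± 0.84, limma adjusted p = 0.0477). Fst, the activin-binding follistatin, was at 5.88 FPKM in 2D against 0 in 2N, and 17.2 in 4D against 0 in 4N (3.48 ± 0.82, limma adjusted p = 0.052). Of the receptors, the type I receptor Acvr1 was at 51.7 FPKM in 2D against 0.58 in 2N, and 58.1 in 4D against 0 in 4N (5.47 ± 0.67, limma adjusted p = 0.00511). The type II receptor Acvr2b was at 6.29 FPKM in 2D against 0 in 2N, and 11.4 in 4D against 0.98 in 4N (2.76 ± 0.76, limma adjusted p = 0.0819). Of the targets, Id3 was at 656 FPKM in 2D against 6.85 in 2N, and 288 in 4D against 16.9 in 4N (5.20 ± 0.58, limma adjusted p = 0.00749). Id2 was at 81.8 FPKM in 2D against 8.05 in 2N, and 25.2 in 4D against 4.18 in 4N (2.77 ± 0.56, limma adjusted p = 0.0311). The Id proteins bind helix-loop-helix factors and keep them off DNA. In each of these 6 genes both D values lay above both N values. The rule that called them largely sets this, so it is no separate evidence.

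WNT pathway genes showed 4 of 9 members at FPKM 10 or more higher and 0 lower, against 2.91% and 4.65% of all genes. Of the 9, 5 reached FPKM 10 in D libraries alone and 2 in N libraries alone. The WNT medians were 2.03 at day 2 and 0.72 at day 4 (1.26 and 0.72 over members at FPKM 1 or more). In this pathway beta-catenin enters the nucleus and joins TCF/LEF proteins on DNA. The called members were 3 of those DNA-binding partners and a receptor. Lef1 was at 17.8 FPKM in 2D against 0 in 2N, and 9.75 in 4D against 0 in 4N (3.83 ± 0.77, limma adjusted p = 0.0309). Tcf7l2 was at 17.1 FPKM in 2D against 1.37 in 2N, and 16.9 in 4D against 0.59 in 4N (3.21 ± 0.71, limma adjusted p = 0.0432). Tcf7l1 was at 20.1 FPKM in 2D against 0 in 2N, and 5.16 in 4D against 0 in 4N (3.51 ± 0.84, limma adjusted p = 0.0541). Lgr4, the R-spondin receptor, was at 15.9 FPKM in 2D against 2.06 in 2N, and 13.2 in 4D against 2.01 in 4N (2.35 ± 0.69, limma adjusted p = 0.0947). Lef1 and Tcf7l2 passed limma; Tcf7l1 and Lgr4 did not.

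Of 15 epithelial junction genes at FPKM 10 or more 4 were called higher and 1 lower, against 2.91% and 4.65% of all genes. The lower share, 6.67%, is close to that of all genes. Of the 15, 8 reached FPKM 10 in D libraries alone and 3 in N libraries alone. Their medians were 0.59 at day 2 and 0.55 at day 4 (0.94 and 0.58 over members at FPKM 1 or more). The desmosome genes Dsp and Pkp2 rose. Dsp was at 25.8 FPKM in 2D against 0 in 2N, and 18.4 in 4D against 0 in 4N (4.51 ± 0.73, limma adjusted p = 0.0144). Pkp2 was at 23.6 FPKM in 2D against 0.98 in 2N, and 23.0 in 4D against 0 in 4N (4.11 ± 0.72, limma adjusted p = 0.0195). Perp, a tetraspan protein of desmosomes, was at 119.6 FPKM in 2D against 16.8 in 2N, and 105 in 4D against 10.2 in 4N (3.002 ± 0.42, limma adjusted p = 0.00791). Ocln, of tight junctions, was at 16.4 FPKM in 2D against 3.20 in 2N, and 9.10 in 4D against 0 in 4N (2.69 ± 0.75, limma adjusted p = 0.085). Jup, which encodes plakoglobin, was lower, at 3.80 FPKM in 2D against 24.8 in 2N, and 0 in 4D against 5.81 in 4N (-2.60 ± 0.72, limma adjusted p = 0.0818). Krt18, a keratin of simple epithelia, was also lower in D at both days, with 47.7 FPKM in 2D against 166 in 2N, and 0.83 in 4D against 80.0 in 4N (-3.62 ± 0.93, limma adjusted p = 0.113), without passing the rule or limma.

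Of the 8 imprinted genes at FPKM 10 or more 3 were higher and 0 lower, against 2.91% and 4.65% of all genes. Of the 8, 2 reached FPKM 10 in D libraries alone and 1 in N libraries alone. Their medians were 0.78 and 1.53 at days 2 and 4 (0.77 and 0.74 over members at FPKM 1 or more). Mest was at 573 FPKM in 2D against 1.88 in 2N, and 96.3 in 4D against 4.53 in 4N (5.89 ± 0.86, limma adjusted p = 0.0263). Nnat, the neuronatin gene, was at 39.2 FPKM in 2D against 0 in 2N, and 4.59 in 4D against 0 in 4N (3.91 ± 0.91, limma adjusted p = 0.052). Grb10, a relative of Grb14 that restrains growth factor receptors, was at 68.8 FPKM in 2D against 16.4 in 2N, and 95.8 in 4D against 4.04 in 4N (3.13 ± 0.62, limma adjusted p = 0.0351). Of 23 markers of fibroblasts and stroma 4 reached FPKM 10. Of these 2 were called higher and 0 lower, against 2.91% and 4.65% of all genes. Of the 4, 1 reached FPKM 10 in D libraries alone and 2 in N libraries alone. Their medians were 1.15 at day 2 and 0.76 at day 4. Over the 12 members at FPKM 1 or more the medians were -0.22 and -0.47, with 2 called higher and 1 lower. Fstl1, a secreted glycoprotein, was at 414 FPKM in 2D against 35.3 in 2N, and 205 in 4D against 0.24 in 4N (5.45 ± 0.98, limma adjusted p = 0.0592). Col5a2, a collagen chain, was at 5.67 FPKM in 2D against 0 in 2N, and 17.0 in 4D against 0 in 4N (3.46 ± 0.82, limma adjusted p = 0.0541). The list summed to 440 FPKM in 2D against 81.6 in 2N and 229 in 4D against 55.8 in 4N, with 14 of 23 members listed at 0 in 2D, 14 in 2N, 16 in 4D and 15 in 4N. Their part in the higher genes was not tested.

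Among the lower genes, those that mark all white blood cells were the most numerous. Of the 37 genes of the pan-leukocyte list 35 were at FPKM 10 or more. Of these, 21 were called lower and 0 higher, against 4.65% and 2.91% of all genes, with medians of -2.96 at day 2 and -4.51 at day 4. In the whole list 16 passed limma as lower. Of the 35, 23 reached FPKM 10 in N libraries alone and 0 in D libraries alone. Over the 36 members at FPKM 1 or more the medians were -2.79 and -4.46. The list summed to 799 FPKM in 2D against 6842 in 2N, and to 163 FPKM in 4D against 5794 in 4N, and 27 of its members were listed at 0 in 4D against 2 in 4N. Lsp1, an actin-binding protein of leukocytes, was at 0 FPKM in 2D against 178 in 2N, and 0 in 4D against 133 in 4N (-7.27 ± 0.61, limma adjusted p = 0.00219). Ptpn7, a phosphatase of blood cells, was at 1.58 FPKM in 2D against 92.2 in 2N, and 0 in 4D against 164 in 4N (-6.27 ± 0.70, limma adjusted p = 0.0042). Lcp2, the SLP-76 adaptor of immune receptors, was at 0 FPKM in 2D against 84.1 in 2N, and 0 in 4D against 67.8 in 4N (-6.26 ± 0.66, limma adjusted p = 0.00335). Selplg, the selectin ligand PSGL-1, was at 17.2 FPKM in 2D against 332 in 2N, and 0 in 4D against 173 in 4N (-5.82 ± 0.80, limma adjusted p = 0.0176). These 4 fell by limma. Rac2, the blood cell Rac GTPase, was at 23.6 FPKM in 2D against 323 in 2N, and 0 in 4D against 432 in 4N (-6.24 ± 1.45, limma adjusted p = 0.149). Coro1a, a coronin of the leukocyte cytoskeleton, was at 202 FPKM in 2D against 4042 in 2N, and 24.9 in 4D against 3396 in 4N (-5.68 ± 0.78, limma adjusted p = 0.0629). Neither passed, and both stood lower in 4D than in 2D.

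The single largest negative difference was that of Ptprcap, which encodes a partner of the CD45 phosphatase. It was at 8.29 FPKM in 2D against 988 in 2N, and 0 in 4D against 900.5 in 4N (-8.28 ± 0.77, limma adjusted p = 0.00924). Ptprc, the gene of CD45 itself and a marker used to define blood cells, was at 2.47 FPKM in 2D against 25.9 in 2N, and 0 in 4D against 20.3 in 4N (-3.68 ± 0.73; limma adjusted p = 0.0303). Serpina3g, a protease inhibitor of blood cells, was at 43.4 FPKM in 2D against 2474 in 2N, and 0 in 4D against 1549 in 4N; its difference was large at both days but unequal and did not pass (-8.20 ± 1.55, limma adjusted p = 0.155). Gna15, a G-protein alpha subunit of blood cells, was at 7.78 FPKM in 2D against 371 in 2N, and 0 in 4D against 219 in 4N (-6.59 ± 0.63, limma adjusted p = 0.00348). Lgals9, a galectin, was at 20.9 FPKM in 2D against 445 in 2N, and 0 in 4D against 729.9 in 4N (-6.93 ± 1.58, limma adjusted p = 0.167). Pglyrp1, a peptidoglycan-binding granule protein, was at 0 FPKM in 2D against 215 in 2N, and 0 in 4D against 44.5 in 4N (-6.63 ± 0.75, limma adjusted p = 0.0042); its 2N level was well above its 4N level, as for the late granule genes. Ramp1, a receptor partner for calcitonin gene-related peptide, was at 0 FPKM in 2D against 139 in 2N, and 0 in 4D against 95.0 in 4N (-6.86 ± 0.63, limma adjusted p = 0.003). Susd3, a membrane protein with a sushi domain, was at 1.34 FPKM in 2D against 224 in 2N, and 0 in 4D against 167 in 4N (-6.99 ± 0.56, limma adjusted p = 0.00219). Chad, the matrix protein chondroadherin, was at 0.78 FPKM in 2D against 159 in 2N, and 0 in 4D against 107 in 4N (-6.62 ± 0.59, limma adjusted p = 0.00282).

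Megakaryocyte and platelet genes had the highest share of lower members. Of 13 at FPKM 10 or more 10 were called lower and 0 higher, against 4.65% and 2.91% of all genes. Their medians were -3.85 at day 2 and -5.66 at day 4, and 8 genes of the list passed limma. Of the 13, 9 reached FPKM 10 in N libraries alone, and over the 17 members at FPKM 1 or more the medians were -2.69 and -3.91. The list summed to 132 FPKM in 2D against 726 in 2N, and to 103 FPKM in 4D against 891 in 4N. Itga2b, the integrin CD41, was at 0 FPKM in 2D against 81.7 in 2N, and 0 in 4D against 181 in 4N (-6.94 ± 0.65, limma adjusted p = 0.003). Gp9, a subunit of the receptor for von Willebrand factor, was at 0 FPKM in 2D against 118 in 2N, and 0 in 4D against 115 in 4N (-6.88 ± 0.62, limma adjusted p = 0.00282). Vwf itself, also an endothelial gene, was at 0 FPKM in 2D against 97.7 in 2N, and 0 in 4D against 71.1 in 4N (-6.40 ± 0.65, limma adjusted p = 0.00335). All 3 were listed at 0 in both D libraries. Mmrn1, a multimerin, was at 0.30 FPKM in 2D against 57.8 in 2N, and 0 in 4D against 13.4 in 4N (-4.67 ± 0.76, limma adjusted p = 0.0147). Pf4, a platelet chemokine, was at 0 FPKM in 2D against 5.43 in 2N, and 0 in 4D against 121 in 4N (-4.81 ± 1.07, limma adjusted p = 0.0541). Outside that list, 2 enzymes or receptors of thromboxane signalling were among the 15 largest negative differences. Ptgs1, the cyclooxygenase COX-1, was at 1.25 FPKM in 2D against 199 in 2N, and 0 in 4D against 169 in 4N (-6.94 ± 0.57, limma adjusted p = 0.00219). Tbxa2r, the thromboxane receptor, was at 0.59 FPKM in 2D against 112 in 2N, and 0 in 4D against 138 in 4N (-6.64 ± 0.62, limma adjusted p = 0.003). Nfe2, a transcription factor of platelet formation and erythroid cells, was at 13.8 FPKM in 2D against 461 in 2N, and 0 in 4D against 658 in 4N (-7.17 ± 1.19, limma adjusted p = 0.0703) and did not pass. Of 10 endothelial markers at FPKM 10 or more, 5 were above 0 and 5 below at day 2 (median -0.37) and 9 were below at day 4 (median -2.79). Vwf alone of them was called, as lower, against 4.65% of all genes. Over all 8809 genes 4344 were below 0 at day 2 and 4464 at day 4. Of the 10, 2 reached FPKM 10 in D libraries alone and 3 in N libraries alone.

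Stem cell genes were lower in part. Of 25 surface and signature genes at FPKM 10 or more 8 were called lower and 0 higher, against 4.65% and 2.91% of all genes. Their medians were -0.93 at day 2 and -2.28 at day 4. Of the 25, 11 reached FPKM 10 in N libraries alone and 3 in D libraries alone. Cd34, a sialomucin largely absent from resting adult mouse LT-HSC, was at 9.19 FPKM in 2D against 487 in 2N, and 0 in 4D against 575 in 4N (-7.38 ± 0.91, limma adjusted p = 0.0232), against 16.1 FPKM in uncultured LT-HSC. Gpr56, an adhesion receptor of stem cells, was at 12.6 FPKM in 2D against 335 in 2N, and 0 in 4D against 313 in 4N (-6.46 ± 0.92, limma adjusted p = 0.0311). Cd27, a TNF-receptor family member, was at 9.13 FPKM in 2D against 268 in 2N, and 0 in 4D against 245 in 4N (-6.34 ± 0.78, limma adjusted p = 0.0112). Gimap6, a GTPase of blood cells, was at 8.37 FPKM in 2D against 92.5 in 2N, and 0 in 4D against 137 in 4N (-5.21 ± 0.92, limma adjusted p = 0.0324). Mycn, a MYC relative, was at 0 FPKM in 2D against 54.5 in 2N, and 0 in 4D against 157 in 4N (-6.55 ± 0.69, limma adjusted p = 0.00335). These 5 fell in limma, and all were listed at 0 in 4D. Over the whole list 7 members fell in limma and 2 rose. Ly6a, the stem cell antigen Sca-1, was at 259 FPKM in 2D against 76.8 in 2N, and 149 in 4D against 23.4 in 4N (2.18 ± 0.36; limma adjusted p = 0.0147). Ifitm3, an interferon-induced membrane protein, was at 898 FPKM in 2D against 317 in 2N, and 647 in 4D against 295 in 4N (1.31 ± 0.23; limma adjusted p = 0.0196). Neither reached 4-fold at both days.

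Of 22 stem cell transcription factors at FPKM 10 or more 5 were called lower and 0 higher, against 4.65% and 2.91% of all genes. Their medians were -0.81 at day 2 and -2.25 at day 4. Of the 22, 9 reached FPKM 10 in N libraries alone and 1 in D libraries alone. Gfi1b, a repressor that restrains stem cell division and drives platelet and red cell formation, was at 0.51 FPKM in 2D against 73.8 in 2N, and 0 in 4D against 135 in 4N (-6.36 ± 0.67, limma adjusted p = 0.00335). Lyl1, a relative of the stem cell factor Tal1, was at 7.49 FPKM in 2D against 66.3 in 2N, and 0 in 4D against 33.3 in 4N (-4.04 ± 0.71, limma adjusted p = 0.0203). Myb, needed for progenitor growth, was at 5.11 FPKM in 2D against 64.6 in 2N, and 3.73 in 4D against 43.4 in 4N (-3.33 ± 0.55, limma adjusted p = 0.0147). Meis1, a homeobox partner of HOX proteins, was at 16.9 FPKM in 2D against 89.2 in 2N, and 12.3 in 4D against 68.4 in 4N (-2.36 ± 0.43, limma adjusted p = 0.0212). Hlf, a leucine-zipper factor of LT-HSC, was at 1.31 FPKM in 2D against 21.7 in 2N, and 0.97 in 4D against 7.58 in 4N (-2.71 ± 0.74, limma adjusted p = 0.0801) and did not pass. Erg, an ETS factor, was at 9.92 FPKM in 2D against 22.6 in 2N, and 0 in 4D against 23.3 in 4N (-2.86 ± 0.92, limma adjusted p = 0.135) and was not called at day 2. Mecom, which encodes the stem cell factor Evi1, was not lower: it was at 94.2 FPKM in 2D against 28.8 in 2N, and 24.9 in 4D against 14.7 in 4N (1.20 ± 0.47; limma adjusted p = 0.191).

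Myeloid regulators and cytokine signalling genes were lower in part. Sfpi1, the gene of the ETS factor PU.1, was at 11.9 FPKM in 2D against 167 in 2N, and 0 in 4D against 259 in 4N (-5.86 ± 1.09, limma adjusted p = 0.0598). Tcfec, a MITF relative of macrophages, was at 0 FPKM in 2D against 36.4 in 2N, and 0 in 4D against 9.75 in 4N (-4.33 ± 0.80, limma adjusted p = 0.0233). In the myeloid factor list 3 of the 7 members at FPKM 10 or more were lower and 2 higher, against 4.65% and 2.91% of all genes. Of the 7, 2 reached FPKM 10 in D libraries alone and 2 in N libraries alone. Their medians were -1.66 at day 2 and -3.43 at day 4 (-0.54 and -1.16 over members at FPKM 1 or more). The 2 higher ones were Klf4 and the C/EBP factor Cebpd. Cebpd was at 15.2 FPKM in 2D against 2.17 in 2N, and 5.16 in 4D against 0 in 4N (2.49 ± 0.74, limma adjusted p = 0.101). Of 20 genes for cytokine receptors and JAK-STAT signalling 4 were lower and 0 higher, against 4.65% and 2.91% of all genes. Their medians were -0.94 at day 2 and -2.18 at day 4. Of the 20, 8 reached FPKM 10 in N libraries alone and 2 in D libraries alone. Il4ra, an interleukin receptor chain, was at 9.79 FPKM in 2D against 88.4 in 2N, and 2.41 in 4D against 46.0 in 4N (-3.42 ± 0.53, limma adjusted p = 0.0124). Stat5a, which carries cytokine signals to DNA, was at 6.90 FPKM in 2D against 41.2 in 2N, and 2.19 in 4D against 21.3 in 4N (-2.61 ± 0.61, limma adjusted p = 0.0491). Cish, a STAT5 target that dampens the pathway, was at 34.1 FPKM in 2D against 261 in 2N, and 0 in 4D against 137 in 4N (-5.01 ± 1.07, limma adjusted p = 0.085). Csf2rb, the shared beta chain of the GM-CSF receptor, was at 1.89 FPKM in 2D against 14.8 in 2N, and 0 in 4D against 11.3 in 4N (-3.04 ± 0.75, limma adjusted p = 0.0595). Il4ra and Stat5a passed limma; Cish and Csf2rb did not.

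Granule genes gave 4 of 14 lower and 0 higher by the rule, with medians of -6.06 at day 2 and -0.87 at day 4. Lyz2, a lysozyme, was at 5.67 FPKM in 2D against 288 in 2N, and 0 in 4D against 146 in 4N (-6.32 ± 0.58, limma adjusted p = 0.003). Prtn3, proteinase 3 of early granules, was at 2.42 FPKM in 2D against 102 in 2N, and 1.44 in 4D against 165 in 4N (-5.50 ± 0.56, limma adjusted p = 0.00335). Both were high in both N libraries. Camp, an antimicrobial peptide of late granules, was at 3.81 FPKM in 2D against 1266 in 2N, and 0 in 4D against 3.71 in 4N (-5.14 ± 1.48, limma adjusted p = 0.15), so that its call rests on 2N, and S100a9 and Ngp did not reach 4-fold at day 4.

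Interferon and MHC class I genes lay mostly below 0 with few calls. Of 23 members at FPKM 10 or more 2 were called lower and 0 higher, against 4.65% and 2.91% of all genes. Below 0 were 20 at day 2 and 19 at day 4, with medians of -1.30 and -2.63. Over all 8809 genes 4344 were below 0 at day 2 and 4464 at day 4. Of the 23, 6 reached FPKM 10 in N libraries alone and 0 in D libraries alone. Psmb9, an immunoproteasome subunit, was at 12.6 FPKM in 2D against 76.3 in 2N, and 0 in 4D against 137 in 4N (-4.81 ± 1.17, limma adjusted p = 0.103). Tap2, a peptide transporter, was at 1.41 FPKM in 2D against 10.9 in 2N, and 0.51 in 4D against 11.3 in 4N (-2.67 ± 0.74, limma adjusted p = 0.0817). Neither of these called genes passed limma, while 3 other members fell in limma without reaching 4-fold at both days. B2m, the light chain of MHC class I, was at 1660 FPKM in 2D against 4095 in 2N, and 365 in 4D against 2258 in 4N (-1.96 ± 0.32; limma adjusted p = 0.0325). H2-K1, a heavy chain, was at 423 FPKM in 2D against 1076 in 2N, and 186 in 4D against 1257 in 4N (-2.05 ± 0.35; limma adjusted p = 0.0269). Psmb10, an immunoproteasome subunit, was at 67.1 FPKM in 2D against 183 in 2N, and 36.9 in 4D against 204 in 4N (-1.94 ± 0.36; limma adjusted p = 0.0248). Ifitm3, described above, is also in this list and rose.

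**Figure D3:**
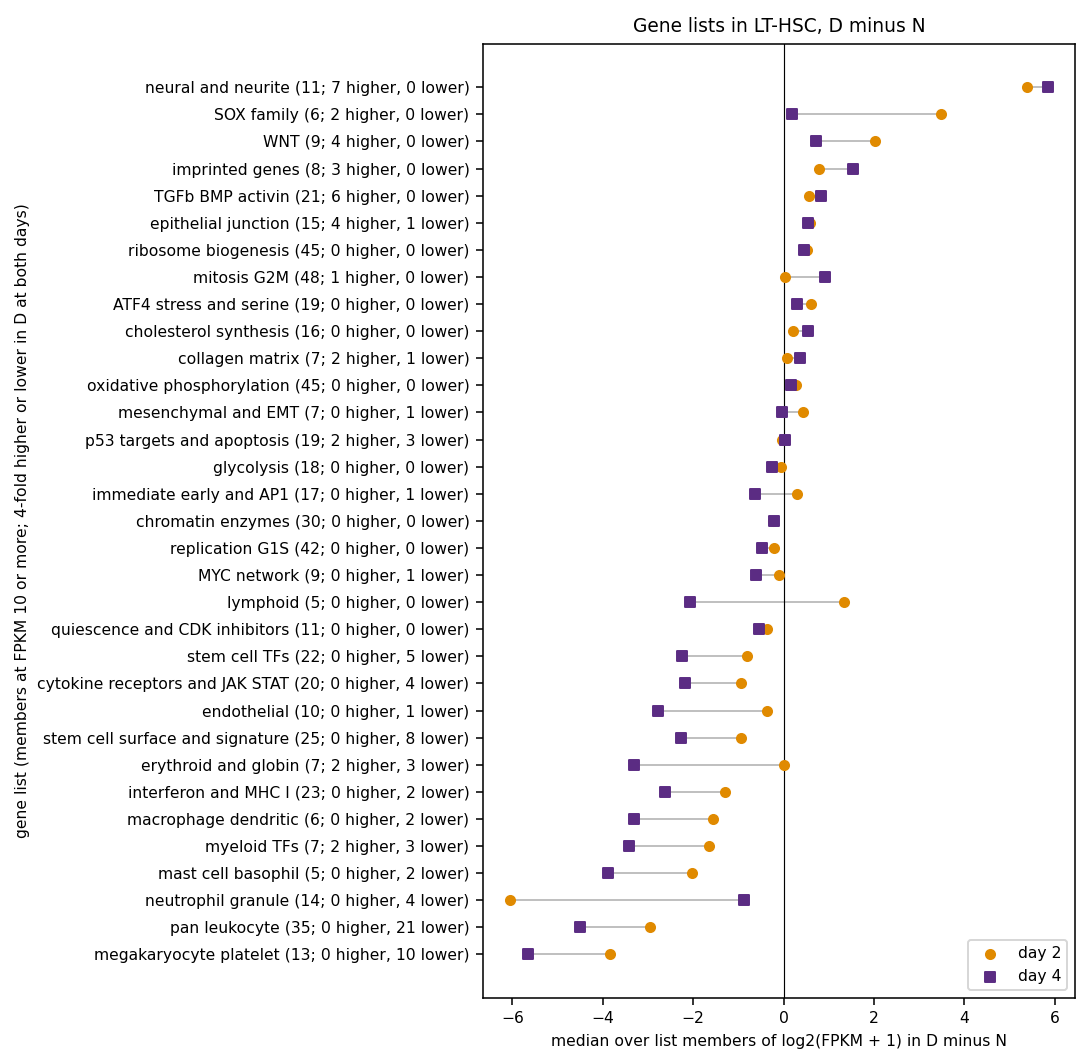
Median difference in log2(FPKM + 1), D minus N, of each gene list with 5 or more members at FPKM 10 or more, at day 2 (circles) and day 4 (squares). Numbers beside each name are the members at that level and how many were called higher and lower at both days; neural genes have the highest medians (5.39 and 5.86), and the lowest are those of granule genes at day 2 (-6.06) and megakaryocyte genes at day 4 (-5.66). Over members at FPKM 1 or more the neural medians were 1.88 and 2.41. At that minimum the granule median at day 2 was -4.91 and the megakaryocyte median at day 4 was -3.91.

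Growth and housekeeping lists held almost no called gene. None of the 42 replication genes, 45 ribosome biogenesis genes, 45 oxidative phosphorylation genes, 18 glycolysis genes, 16 cholesterol synthesis genes or 30 chromatin enzymes at FPKM 10 or more was called by the 4-fold rule. Over all genes 2.91% were called higher and 4.65% lower, so 0 in the lists of 16 and 18 genes is close to those shares. By limma 1 replication gene rose and 1 fell. Rrm2, a ribonucleotide reductase subunit, was at 174 FPKM in 2D against 76.2 in 2N, and 226 in 4D against 62.9 in 4N (1.51 ± 0.32, limma adjusted p = 0.0397). Rfc2, a clamp loader subunit, was at 106 FPKM in 2D against 252 in 2N, and 110.2 in 4D against 338 in 4N (-1.43 ± 0.28, limma adjusted p = 0.0296). Over all 8809 genes 4376 were above 0 at day 2 and 4248 at day 4. Mitosis genes leaned upwards at day 4: 26 of 48 were above 0 at day 2 and 44 of 48 at day 4, with medians of 0.04 and 0.92. The day 4 mitosis median was also above 0 in ST-HSC (0.30) and MP (0.53). The called mitosis gene was Ect2, a cytokinesis regulator, at 46.2 FPKM in 2D against 0.28 in 2N, and 41.0 in 4D against 5.88 in 4N (3.91 ± 0.77, limma adjusted p = 0.0329). Ribosome biogenesis genes were above 0 in 37 of 45 at day 2 and 35 of 45 at day 4, with medians of 0.53 and 0.44; of the list's 48 genes tested by limma 2 rose. Polr1e, a polymerase I subunit, was at 79.3 FPKM in 2D against 12.9 in 2N, and 157 in 4D against 50.3 in 4N (2.08 ± 0.40, limma adjusted p = 0.0281). Wdr75, a ribosome assembly factor, was at 99.6 FPKM in 2D against 38.8 in 2N, and 149.5 in 4D against 44.5 in 4N (1.53 ± 0.35, limma adjusted p = 0.0477). Upper-quartile scaling moves the median of all genes to 0.12 at day 2 and 0.08 at day 4, against 0.00 and -0.02, so differences of that size have no direction. Over members at FPKM 1 or more the day 2 median of chromatin enzymes was 0.15, against -0.23 at the minimum of 10. Apoptosis and p53 genes went both ways. Bcl2, which blocks apoptosis, was at 0.66 FPKM in 2D against 13.2 in 2N, and 0.58 in 4D against 16.6 in 4N (-3.29 ± 0.72, limma adjusted p = 0.0422). Phlda3, a p53 target that holds back AKT, was at 90.7 FPKM in 2D against 8.70 in 2N, and 113 in 4D against 25.7 in 4N (2.67 ± 0.45, limma adjusted p = 0.0171).

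The promoters of the called genes were searched for 7 motifs of factors at work in reprogramming or in blood. Each motif was looked for on both strands in the RefSeq promoter (250 bases before and 50 after the start site, GRCm38.p6) of genes with an entry, 316 of the 410 lower and 196 of the 256 higher genes. The letters GAGGAAGT, which ETS factors such as PU.1 can bind, were in 7.91% of lower and 1.53% of higher genes, against 3.24% of all genes at FPKM 10 or more and 3.28% of 27025 promoters. TGTGGTT, the core of RUNX sites, was in 7.28% of lower and 5.61% of higher genes, against 3.56% of genes at FPKM 10 or more but 5.37% of all promoters. For the octamer ATGCAAAT, which Oct4 can bind, the shares were 1.90% of lower and 1.02% of higher genes, against 1.25% of genes at FPKM 10 or more and 1.75% of all promoters. CATTGTT, a SOX motif, was in 2.22% of lower and 2.55% of higher genes, against 1.66% and 3.87%. The E-box CACGTG was in 8.23% and 8.16%, against 11.0% and 7.24%. CACCC, a KLF core, was in 70.9% and 68.9%, against 61.8% and 56.7%, and TTGCGCAA, a C/EBP motif, in 0.317% of lower genes and 0 of 196 higher ones, against 0.286% and 0.185%. No motif contains another. A match is a description and no site.

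The promoters of 4 lower genes that hold the ETS letters and of 2 higher genes that hold the octamer or SOX letters are shown to place the match against the start site. They were chosen after the matches were known and are written 5′ to 3′ with the matched letters in capitals, read in reverse complement where they lie on the opposite strand.
Prtn3, chr10:79879417-79879716, plus strand, ETS letters 95 bases before the start site: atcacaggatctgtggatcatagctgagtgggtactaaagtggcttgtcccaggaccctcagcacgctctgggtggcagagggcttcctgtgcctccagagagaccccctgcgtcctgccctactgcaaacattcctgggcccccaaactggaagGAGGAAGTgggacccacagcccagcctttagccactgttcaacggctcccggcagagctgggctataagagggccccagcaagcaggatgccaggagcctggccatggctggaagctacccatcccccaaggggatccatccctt
Cd37, chr7:45238790-45239089, minus strand, ETS letters 25 bases before the start site on the opposite strand: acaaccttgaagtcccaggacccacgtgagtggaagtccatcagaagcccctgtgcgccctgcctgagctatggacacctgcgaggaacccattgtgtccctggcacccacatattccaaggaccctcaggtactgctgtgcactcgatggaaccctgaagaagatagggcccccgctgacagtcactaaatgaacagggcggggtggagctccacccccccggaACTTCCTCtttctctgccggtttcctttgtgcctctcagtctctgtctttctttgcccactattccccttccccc
Vav1, chr17:57278850-57279149, plus strand, ETS letters 11 bases before the start site: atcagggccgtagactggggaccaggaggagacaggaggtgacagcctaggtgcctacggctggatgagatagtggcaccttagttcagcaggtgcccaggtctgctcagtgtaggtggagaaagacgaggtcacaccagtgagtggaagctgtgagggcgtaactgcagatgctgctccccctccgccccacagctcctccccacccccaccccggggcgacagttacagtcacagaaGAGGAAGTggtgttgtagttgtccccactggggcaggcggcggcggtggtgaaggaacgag
Ptgs1, chr2:36230176-36230475, plus strand, ETS letters 24 bases before the start site: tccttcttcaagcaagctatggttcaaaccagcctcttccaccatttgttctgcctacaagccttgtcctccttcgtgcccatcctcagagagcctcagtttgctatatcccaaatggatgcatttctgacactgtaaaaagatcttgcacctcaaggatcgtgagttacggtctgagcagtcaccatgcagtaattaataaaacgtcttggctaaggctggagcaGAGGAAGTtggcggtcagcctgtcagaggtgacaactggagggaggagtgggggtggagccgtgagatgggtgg
Lgr4, chr2:109917397-109917696, plus strand, octamer 49 bases before the start site on the opposite strand: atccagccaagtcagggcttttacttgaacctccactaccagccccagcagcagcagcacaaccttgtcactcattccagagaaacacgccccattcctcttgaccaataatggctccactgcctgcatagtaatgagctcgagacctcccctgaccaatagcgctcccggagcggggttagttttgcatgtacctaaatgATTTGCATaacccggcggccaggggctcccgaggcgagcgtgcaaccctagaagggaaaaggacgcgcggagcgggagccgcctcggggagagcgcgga
Tcf7l2, chr19:55741560-55741859, plus strand, SOX letters 103 bases before the start site, the first of 2 promoters listed: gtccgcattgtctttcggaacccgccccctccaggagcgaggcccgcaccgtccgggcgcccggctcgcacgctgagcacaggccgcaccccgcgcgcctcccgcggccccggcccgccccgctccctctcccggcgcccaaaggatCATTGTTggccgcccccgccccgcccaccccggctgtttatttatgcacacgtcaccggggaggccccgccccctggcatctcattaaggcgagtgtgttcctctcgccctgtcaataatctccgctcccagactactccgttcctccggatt
Prtn3, Ptgs1, Lgr4 and Tcf7l2 have their values above. Cd37, a leukocyte tetraspanin, was at 0.82 FPKM in 2D against 97.7 in 2N, and 0 in 4D against 24.3 in 4N (-5.21 ± 0.69; limma adjusted p = 0.0064). Vav1, an exchange factor that activates Rac in blood cells, was at 6.53 FPKM in 2D against 93.9 in 2N, and 0 in 4D against 79.8 in 4N (-5.00 ± 0.74; limma adjusted p = 0.0136).

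**Figure D4:**
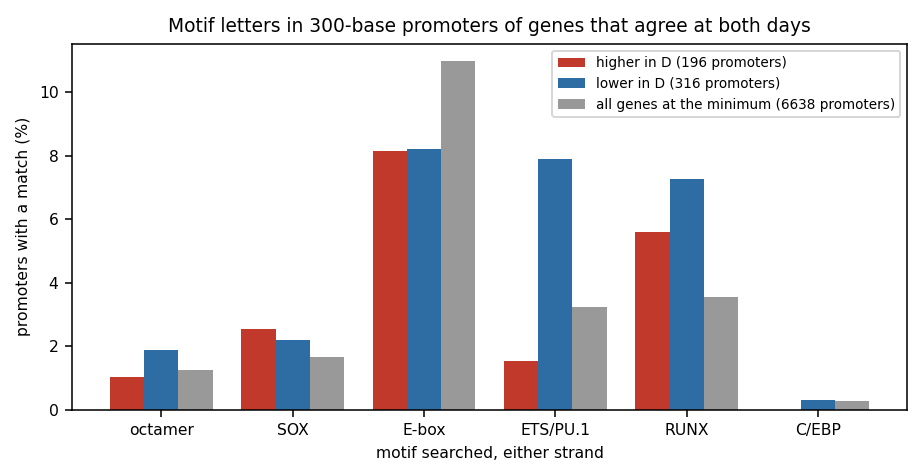
Share of promoters with each motif, on either strand, among genes higher in D at both days, genes lower in D at both days, and all genes at FPKM 10 or more; the KLF core, present in most promoters, is left out. ETS letters were in 7.91% of lower genes' promoters, 1.53% of higher genes' and 3.24% of all.

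At 39 genes the 2 days disagreed. Of these 24 were higher in D at day 2 and lower at day 4, and 15 the reverse; with 1 library per day the difference between days was not tested. Rsph9, a radial spoke protein of cilia, was at 38.2 FPKM in 2D against 0 in 2N, and 0 in 4D against 15.9 in 4N. Tatdn3 was at 17.7 FPKM in 2D against 1.53 in 2N, and 0.86 in 4D against 43.2 in 4N. In the reverse direction Dusp1, an immediate-early phosphatase of MAP kinases, was at 0.65 FPKM in 2D against 8.71 in 2N, and 20.1 in 4D against 0.39 in 4N. These levels were low: the 10 named genes of this kind had no D or N value above 47.6 FPKM.

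The ST-HSC and MP cultures give the same contrast in libraries that did not choose these genes. In a limma fit of those 8 libraries, with each pair of cell type and day as a block, 293 of 12098 genes rose (2.42%) and 231 fell (1.91%). Of the LT-HSC higher genes 238 were tested there, 228 had the same sign and 107 passed in the same direction, with 0 in the other. Of the lower genes 389 were tested, 346 had the same sign and 62 passed in the same direction, with 2 in the other. Leaving out the MP day 2 pair reduced these to 33 higher and 12 lower. Without the day 4 pair of ST-HSC they were 55 and 29, and without that of MP 46 and 27. Of the 15 largest positive differences 13 of the 14 tested passed, among them Hbb-y (9.11 ± 0.40, limma adjusted p = 0.000414), which the LT-HSC fit had not called; Hbb-y was at 6887 FPKM in ST-HSC 2D against 17.6 in 2N, and 3032 in 4D against 1.52 in 4N. Of the 15 largest negative differences 3 of the 14 tested passed: Serpina3g (-2.90 ± 0.57, limma adjusted p = 0.0366), Gna15 (-3.92 ± 0.77, limma adjusted p = 0.0366) and Itga2b (-3.13 ± 0.68, limma adjusted p = 0.0497).

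The 4-fold rule was also applied to each other cell type. In MP 472 of 8656 genes were lower (5.45%), and 150 of them were LT-HSC lower genes, 36.6% of the LT-HSC list and 31.8% of the MP list. In ST-HSC 125 of 8713 were lower (1.43%), and 42 were shared, 10.2% of the LT-HSC list and 33.6% of the ST-HSC list. For the higher genes, MP called 349 (4.03%) and shared 107, which are 41.8% of the LT-HSC and 30.7% of the MP list, and ST-HSC called 233 (2.67%) and shared 81, which are 31.6% and 34.8%. In all 3 cell types 60 genes were higher and 32 lower. Cd34 was at 220.3 FPKM in ST-HSC 2D against 596 in 2N, and 155 in 4D against 442 in 4N (-2.87 ± 0.63, limma adjusted p = 0.0512). Its MP values were 14.3 FPKM in MP 2D against 132 in 2N, and 0 in 4D against 41.4 in 4N. The median of the 410 lower genes was 13.95 FPKM in ST-HSC 2D against 22.75 in 2N and 10.25 in 4D against 18.8 in 4N, and in MP 2.40 in 2D against 16.0 in 2N and 0 in 4D against 14.6 in 4N.

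The megakaryocyte list had 8 members at FPKM 10 or more in ST-HSC with medians of -2.24 and -0.34 and 5 in MP with -0.32 and -0.91. The neural list had 6 of 12 members higher in ST-HSC and 14 of 19 in MP, medians of 4.55 and 4.45 in ST-HSC and of 5.35 and 4.93 in MP. Stmn2 was at 454 FPKM in ST-HSC 2D against 5.34 in 2N, and 105 in 4D against 0 in 4N (7.72 ± 0.54, limma adjusted p = 0.00173). Its MP values were 504 FPKM in MP 2D against 0 in 2N, and 1267 in 4D against 1.47 in 4N. Sox2 rose there too, by 4.40 ± 0.57, limma adjusted p = 0.0101. Klf4 did not differ past the threshold in these cells, with 0.70 FPKM in ST-HSC 2D against 1.33 in 2N, and 3.20 in 4D against 0.33 in 4N (0.20 ± 0.58, limma adjusted p = 0.897). Its MP values were 6.93 FPKM in MP 2D against 3.76 in 2N, and 9.55 in 4D against 22.6 in 4N.

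Whether a difference in LT-HSC was itself unlike that in ST-HSC and MP was tested as an interaction in limma over the 12 libraries. Of 12254 genes 3 were more positive in LT-HSC (0.0245%) and 1 more negative (0.00816%), with 1388 at an unadjusted p under 0.05. So although 128 higher and 250 lower genes met the rule in LT-HSC and in neither other cell type, this test called 4 genes, 3 of which met the rule. Reg3g differed by 8.74 ± 0.77, limma adjusted p = 0.0164; it was listed at 0 in all 8 ST-HSC and MP cultures. Plxnb2, a receptor for semaphorins, was at 226 FPKM in 2D against 6.79 in 2N, and 134 in 4D against 4.10 in 4N in LT-HSC (4.80 ± 0.43, limma adjusted p = 0.00282). ST-HSC held it at 153 FPKM in ST-HSC 2D against 88.2 in 2N, and 104 in 4D against 81.3 in 4N. MP held it at 11.9 FPKM in MP 2D against 9.33 in 2N, and 138 in 4D against 71.7 in 4N. The interaction was 4.20 ± 0.43, limma adjusted p = 0.0275. Its D levels in LT-HSC lay close to those in ST-HSC, and its N levels well below. Car2, a carbonic anhydrase of red cells, was at 168 FPKM in 2D against 1434 in 2N, and 117 in 4D against 1554 in 4N in LT-HSC (-3.40 ± 0.25, limma adjusted p = 0.0018). In ST-HSC it was at 453 FPKM in ST-HSC 2D against 351 in 2N, and 504 in 4D against 147 in 4N. In MP it was at 56.6 FPKM in MP 2D against 45.1 in 2N, and 19 in 4D against 7.23 in 4N. Both LT-HSC pairs were lower in D and the other 4 pairs higher in D (-4.34 ± 0.50, limma adjusted p = 0.0404). Anxa3, an annexin of neutrophils, passed on the side of ST-HSC and MP. It was at 0.79 FPKM in LT-HSC 2N and listed at 0 in LT-HSC 2D, 4D and 4N (7.25 ± 0.84, limma adjusted p = 0.0404). ST-HSC held 0 FPKM in ST-HSC 2D against 107 in 2N, and 0.40 in 4D against 162 in 4N. MP held 0.82 FPKM in MP 2D against 584 in 2N, and 0 in 4D against 431 in 4N. Over 13 alternative settings Reg3g passed in 7 (adjusted p 0.000614 to 0.209 in limma), and Plxnb2, Anxa3 and Car2 in 5 each (up to 0.195, 0.409 and 0.530).

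**Figure D5:**
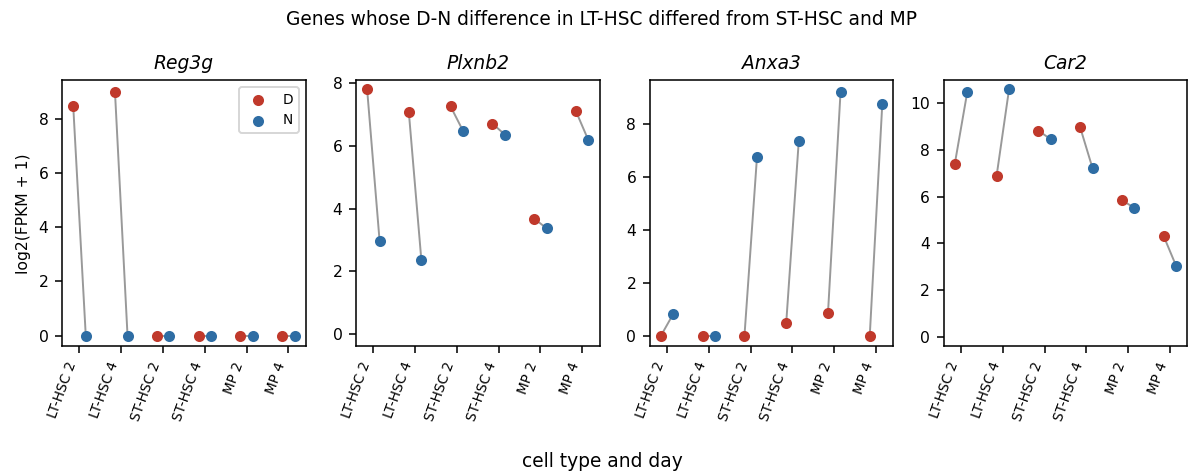
Level, as log2(FPKM + 1), of the 4 genes whose D minus N difference in LT-HSC differed from that in ST-HSC and MP by limma, in D (red) and N (blue) of each cell type and day, 1 library per point, with lines joining each pair. Reg3g and Plxnb2 are far higher in D only in LT-HSC, Car2 is lower in D only in LT-HSC, and Anxa3 is lower in D in ST-HSC and MP while near 0 in LT-HSC.

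Below the threshold, the next genes had adjusted p of 0.0925 to 0.0993 in limma. Mcpt8 and Ccr2 were listed at 0 in all LT-HSC cultures and fell in ST-HSC and MP. Their interactions were 6.94 ± 0.96 and 5.10 ± 0.77 (limma adjusted p = 0.093 and 0.0993). Agpat4 rose more in ST-HSC and MP (4.96 ± 0.38) than in LT-HSC (0.69 ± 0.52), an interaction of -4.27 ± 0.60, limma adjusted p = 0.093. Pglyrp2 fell in LT-HSC (-5.30 ± 0.70) and not in ST-HSC and MP (0.30 ± 0.46), limma adjusted p = 0.0925 for the interaction. Hemgn, a haematopoietic nuclear protein, was at 0 FPKM in 2D against 27.5 in 2N, and 0 in 4D against 59.0 in 4N in LT-HSC (-5.25 ± 0.75, limma adjusted p = 0.093). In ST-HSC it was at 10.1 FPKM in ST-HSC 2D against 12.5 in 2N, and 7.53 in 4D against 8.87 in 4N. In MP it was listed at 0 throughout. Jup was lower in D in LT-HSC and higher in D in the others (-6.54 ± 0.94, limma adjusted p = 0.093). It was at 19.6 FPKM in ST-HSC 2D against 0.66 in 2N, and 6.02 in 4D against 0.35 in 4N. MP held it at 20.9 FPKM in MP 2D against 0 in 2N, and 38.8 in 4D against 0 in 4N. Mycn was at 36.4 FPKM in ST-HSC 2D against 68.5 in 2N, and 49.3 in 4D against 43.6 in 4N (-7.22 ± 1.15, limma adjusted p = 0.0993). In MP it was at 4.21 FPKM in MP 2D against 4.22 in 2N, and 9.71 in 4D against 0 in 4N. Tfrc, the transferrin receptor, which brings iron into growing cells, was at 104 FPKM in 2D against 17.5 in 2N, and 138 in 4D against 14.8 in 4N in LT-HSC (2.82 ± 0.41, limma adjusted p = 0.00951), whereas the difference in ST-HSC and MP was 0.05 ± 0.32, limma adjusted p = 0.955; its interaction did not pass (2.77 ± 0.54, limma adjusted p = 0.13).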

How the data were processed

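RNA was measured in 18 mouse libraries, 15 of them from 25 blood cells each. The deposited FPKM values, 1 per gene and library, were made by the authors with TopHat and Cufflinks against mm9, per the submitters' processing notes. The sources used here give no version or annotation. The unit was read from the values. Low values of 2D and 2N were not whole multiples of a step: over 133 low genes the commonest ratio was shared by 3.76% within 1%, so no depth, interval or detection limit is given. Amplification from 25 cells adds noise and zeros to low genes. The table held 36818 entries and 36655 symbols; the 158 symbols on several entries were summed.

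Groups follow the titles. Values were log2(FPKM + 1), so differences of genes near 0 depend on the added 1. Fits used R 4.3.3 and limma 3.58.1 with a trended and robust empirical Bayes step (two-sided, Benjamini-Hochberg adjusted over all genes tested, threshold 0.05) and were tested on simulated data. Figures used Python 3.11.15, pandas 2.3.3, numpy 2.4.6 and matplotlib 3.10.9. Of 993 genes in 37 lists, 981 were found by symbol, 9 by Ensembl ID and 3 were not found. Promoters are RefSeq's on GRCm38.p6; no mm9 coordinates were used.

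Members, lists and motifs were chosen with earlier results of these data known. The text names the 15 largest positive and 15 largest negative mean differences among called genes, the 5 largest each way among genes opposed between days, up to 5 genes each way of the interaction, the 4 factors, Nanog and up to 6 members of a list, leaving out predicted genes without a name. 1 list member is not reported here. Ptprc, Mecom, Ly6a, Ifitm3, B2m, H2-K1, Psmb10, Cd37, Vav1, Lyrm1, Uap1l1, Mobkl2a, and some genes given again under another comparison, were added after their values were seen. Alternatives changed the added value, filter, scaling, fold, duplicate rule, limma options and the libraries in a fit. Comparisons of D with N at day 2 alone and day 4 alone were added after seeing the data. Fits with ST-HSC and MP take different cell types and days as replicates of each other.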

Additional observations from a re-analysis of the deposited data

Results flagged for a closer look

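The D minus N difference of 4 genes in LT-HSC differed from that in ST-HSC and MP in the interaction test of limma over 12 libraries. It was higher by 8.74 for Reg3g (adjusted p = 0.0164, limma), by 7.25 for Anxa3 (adjusted p = 0.0404, limma) and by 4.20 for Plxnb2 (adjusted p = 0.0275, limma), and it was -4.34 for Car2 (adjusted p = 0.0404, limma). In each of these the 2 LT-HSC pairs lay on 1 side of the 4 other pairs.

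In LT-HSC the difference went opposite ways at the 2 days for 10 further genes, each with 1 library per condition, so the change between days was not tested. The day 4 difference minus the day 2 difference was -9.37 for Rsph9, -9.11 for SNORA57.2, a small nucleolar RNA, -8.05 for Insl6, -7.64 for Isoc2b and -7.45 for Tatdn3. It was 7.68 for Trmt61b, 7.45 for Fam158a, 7.08 for Rps4y2, 6.48 for Dusp1 and 6.26 for Efcab7. In 2D against 2N Insl6 was at 32.9 against 0 FPKM, and in 4D against 4N at 3.63 against 35.3 FPKM. Trmt61b was at 0.17 FPKM in 2D against 39.2 in 2N and at 13.7 FPKM in 4D against 1.47 in 4N.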

How the results depend on the processing

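None of the 30 genes with the largest differences and of the 10 named for the interaction changed direction in the alternatives run. For the 30, only the scaling and the duplicate rule could have changed the direction. Of the 30 genes with the largest differences, 30 kept their call with upper-quartile scaling, and 29 with 10 added and at a fold of 8. An added value of 0.1, a fold of 2 and a minimum of 1 could not have ended a call. For the 10 interaction genes, 94 values over 13 alternatives kept their side of the threshold, 30 no longer passed and 6 came to pass. All 30 came from Reg3g, Plxnb2, Anxa3 and Car2, which had passed in the fit described above. Of the 13 alternatives Reg3g passed in 7, and Plxnb2, Anxa3 and Car2 in 5 each. The other genes had not passed in that fit, and most of the 94 are values of theirs that stayed short of the threshold. The 256 higher and 410 lower genes became 61 and 134 with 10 added, 94 and 180 at an FPKM minimum of 50, 685 and 962 at a fold of 2, and 119 and 209 at a fold of 8. With 1 day alone they ranged from 571 to 629 higher and from 659 to 1004 lower. The genes opposed between days, 15 higher and 24 lower at day 4, became 26 and 45 with 0.1 added, 0 and 0 with 10 added, 29 and 39 at a minimum of 1, 1 and 3 at a minimum of 50, 83 and 117 at a fold of 2, and 3 and 9 at a fold of 8.

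The limma fit of LT-HSC, 251 higher and 364 lower, gave 0 and 0 with 0.1 added, without the filter and without trend and robust options (2340, 2404 and 2175 genes at an unadjusted p under 0.05), and 163 and 230 at a mean FPKM of 10. The interaction, 3 higher and 1 lower, gave 0 and 0 with 0.1 added, 9 and 23 with 10 added, 1 and 0 without the filter, 1 higher at a mean FPKM of 10, 4 lower without trend and robust options, and 6 and 3 with a D term per cell type. Leaving out 1 pair it ranged from 0 to 7 higher and 0 to 2 lower; without an LT-HSC pair the lone pair is assumed to vary like the others. The LT-HSC genes passing in ST-HSC and MP, 107 higher and 62 lower, became 36 lower with 0.1 added, 27 lower without the filter, 62 higher at a mean FPKM of 10 and 32 lower without trend and robust options, and leaving out 1 pair ranged from 33 to 95 higher and 12 to 62 lower. The cause was not tested. The limma fits pair D with N by day and cell type as a block, and no fit without that block was run. Depth, which is unknown, limits what a value of 0 can show.

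List medians depended on the minimum and the added value. Those of the neural list, 5.39 at day 2 and 5.86 at day 4, became 1.88 and 2.41 at a minimum of 1 and 2.35 and 2.98 with 10 added. The megakaryocyte medians, -3.85 and -5.66, became -2.69 and -3.91, and -1.92 and -2.57. The pan-leukocyte medians, -2.96 and -4.51, became -1.51 and -1.85 with 10 added. Over 37 lists, 2 days and 3 alternatives 130 medians stayed within 1.5 times, 82 moved further and 10 changed sign. At a minimum of 1 the sign changed for lymphoid genes at day 2 (-0.13), fibroblast genes at both days (-0.22 and -0.47), mesenchymal genes at day 4 (1.45), immediate-early genes at day 4 (0.0789) and chromatin enzymes at day 2 (0.15). With upper-quartile scaling it changed for mesenchymal genes at day 4 (0.22) and at day 2 for MYC network (0.0182), glycolysis (0.0655) and p53 genes (0.0738).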
